A study of Mus musculus with 6 samples.

Results

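Markers of callosal projection neurons and of the upper cortical layers were followed in corticothalamic projection neurons of the mouse: Lhx2, Lmo4, Cux1, Cux2, Pou3f2, Pou3f3 and Rasgrf2. Every probe set that the platform annotation ties to exactly 1 of these symbols was kept, which gave 22 probe sets for the 7 genes, of 34945 single-symbol probe sets for 18193 genes on the array. Cux1 had 9 of them, Cux2, Pou3f2 and Rasgrf2 had 3 each, Pou3f3 had 2, and Lhx2 and Lmo4 had 1 each. A further Pou3f3 probe set was left out because it also carries a second symbol.

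The neurons were labelled from the thalamus of C57BL/6 mice with green fluorescent microspheres, which travel back along axons to the cell body, and were sorted from dissociated cortex by fluorescence. All groups were wild type, and they differed in stage: E18, P3 and P6, with 2 Affymetrix arrays of amplified RNA each. E18 cortex, collected at E18.5, had been injected at E17.5, P3 cortex at P1 and P6 cortex at P4. Labelling therefore lasted 1 day at E18 and 2 days at P3 and P6, and labelling time and stage cannot be told apart in any comparison with E18. A sort on a retrograde tracer keeps whatever cells carry the beads, so its purity sets how far a value belongs to the neurons. Whether paired arrays stand for different animals or sorts is not in the labels, and the p-values cover only how far such arrays differ. Values are log2 expression per probe set. A brighter probe set means more signal on the array, not more transcript, since probe sets bind unequally.

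Callosal neurons send axons through the corpus callosum to the other hemisphere and sit mainly in the upper layers, whereas corticothalamic neurons occupy the deepest layer. Many transcription factors that define the upper layers are also made by cortical progenitors before those layers form. LIM-homeodomain factors such as Lhx2 act with LIM-only proteins such as Lmo4 through shared adaptor proteins. The Cux proteins are cut-type homeodomain factors, Pou3f2 and Pou3f3 belong to the POU homeodomain family, and Rasgrf2 is a calcium-responsive activator of Ras-type GTPases.

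Markers of corticothalamic neurons rose after E18. Over all genes, 11.7% were called higher at P3 than at E18 and 9.94% at P6. All 9 genes of a corticothalamic and layer 6 list were called higher at both stages. Their mean log2 value on the arrays was 8.21 and 8.28 for E18, then 10.58 and 10.09 for P3, then 10.81 and 10.58 for P6. At E18, 5 of the 9 (Tbr1, Ntsr1, Syt6, Crym and Hs3st4) were under the upper quartile of both arrays, and Syt6 was under their median. With the E18 arrays averaged into 1 sample, 5 of the 9 were still called at each stage. The E18 arrays differed less from each other than those of other stages: the SD of their log2 differences was 0.126, against 0.573 between the P3 arrays and 0.452 between the P6 arrays. Of 45037 probe sets, 0 differed over 2-fold between the E18 arrays, 3661 between the P3 arrays and 1689 between the P6 arrays. Whether the E18 arrays hold separate samples was not tested, so calls of named genes that end when they are averaged are stated. Outside the cell type lists they are given with the adjusted p from that fit. On the corticothalamic list, the calls of Tbr1 and Syt6 ended at both stages. Averaging ended 9 member calls in the pairwise comparisons with E18, and leaving out either E18 array ended the same 9. P3 replicate 2 and P6 replicate 1 also stood apart in 18S signal, at 14.22 and 13.92 on the log2 scale against 11.32 to 11.83 on the other arrays. The mean of the hybridization controls, which are spiked in before the array is hybridized, was 9.59 and 9.25 at E18, then 11.72 and 11.59 at P3, then 13.01 and 9.85 at P6. The log2 3′ minus 5′ difference of Actb, which grows as RNA shortens, was 0.56 and 0.58 at E18, then 1.19 and 1.76 at P3, then 1.06 and 0.82 at P6. Both differ between E18 and P3, and the part of the Actb difference in the results was not tested. Where an array is left out, its stage has 1 array, which is assumed to vary like the other stages; without P3 replicate 1, 45.0% of all probe sets were called for P3 minus E18 and 16.7% for P6 minus P3.

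The promoters of 4 members are shown because they carry the contrast in the data: Lhx2 had the largest fall, Pou3f2 and Pou3f3 are a related pair that fell, and Rasgrf2 was the one gene called higher. Each is the 250 bases before a transcript start that RefSeq gives, written along the gene's strand, from RefSeq on GRCm38.p6. They lie at chr2:38339031-38339280 on the plus strand for Lhx2, chr4:22488367-22488616 on the minus strand for Pou3f2, chr1:42695518-42695767 on the plus strand for Pou3f3 and chr13:92131829-92132078 on the minus strand for Rasgrf2. Capitals mark the CCAAT and GGGCGG matches found on either strand.
Lhx2: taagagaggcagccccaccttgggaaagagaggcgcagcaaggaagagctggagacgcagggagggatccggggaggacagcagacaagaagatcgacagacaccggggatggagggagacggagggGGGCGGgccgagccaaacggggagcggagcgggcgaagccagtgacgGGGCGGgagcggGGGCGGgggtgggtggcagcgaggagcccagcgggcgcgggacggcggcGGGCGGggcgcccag
Pou3f2: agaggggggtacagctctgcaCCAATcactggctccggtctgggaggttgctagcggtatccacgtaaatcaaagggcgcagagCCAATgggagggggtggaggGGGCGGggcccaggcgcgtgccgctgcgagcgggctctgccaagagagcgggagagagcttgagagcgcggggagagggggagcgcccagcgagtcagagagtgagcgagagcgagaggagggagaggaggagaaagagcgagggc
Pou3f3: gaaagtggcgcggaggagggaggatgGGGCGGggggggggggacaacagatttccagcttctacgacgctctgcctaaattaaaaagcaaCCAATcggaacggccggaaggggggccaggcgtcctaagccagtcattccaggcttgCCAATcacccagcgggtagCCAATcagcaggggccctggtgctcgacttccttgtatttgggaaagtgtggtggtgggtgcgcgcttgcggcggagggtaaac
Rasgrf2: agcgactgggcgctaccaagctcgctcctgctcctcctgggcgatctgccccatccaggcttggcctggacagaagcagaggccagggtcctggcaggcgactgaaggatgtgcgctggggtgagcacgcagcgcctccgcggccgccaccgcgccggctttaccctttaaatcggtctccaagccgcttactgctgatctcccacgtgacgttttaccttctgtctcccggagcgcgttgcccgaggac

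The Lhx2 window held 4 GGGCGG matches, the letters known as a GC box. The Pou3f2 and Pou3f3 windows each held 1 GGGCGG match and shared the CCAAT box, with 2 matches in Pou3f2 and 3 in Pou3f3. No searched motif was found in the Rasgrf2 window. Over the 7 members, 2 windows held CCAAT and 4 held GGGCGG, Lmo4 being the fourth with 3 overlapping matches. Of 32851 windows of the same length over all genes in the table, 33.8% held CCAAT and 32.7% held GGGCGG. Other motifs, also searched on both strands, were in 0 of the 7 windows. Among all windows, 0.728% held ATCGAT, the core that Cux proteins bind, and 4.84% held TAATTA, a homeodomain core. The POU octamer ATGCAAAT was in 1.6% and the TATA box letters TATAAA in 12.4% of all windows. G and C made up 72.8% of the Lhx2 window, 66.8% of Pou3f2, 60.8% of Pou3f3 and 65.2% of Rasgrf2, against a median of 52.4% and an upper quartile of 61.2% over all windows. Lhx2, Lmo4 and Cux2 have further start sites in the table, and the windows used here are those of the start nearest the gene's 5′ boundary. For Lhx2, Cux1 and Cux2 that start lies inside the boundary.

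Lhx2, which holds cortical progenitors in their cortical fate, was abundant at E18 and low after birth. Its probe set 1418317_at read 11.57 and 11.59 at E18, then 5.76 and 6.38 at P3, then 6.23 and 6.43 at P6. On the E18 arrays it stood at the 97.7th percentile of all probe sets, and on the P3 and P6 arrays between the 35.1st and the 50.3rd. All 4 postnatal arrays lay far below both E18 arrays, and the P3 and P6 arrays overlapped. The change was -5.51 ± 0.27 for P3 minus E18 (SE; limma adjusted p = 5.45e-05), a 45.6-fold lower signal at P3. For P6 minus E18 it was -5.25 ± 0.27 (adjusted p = 6.71e-05), 38.0-fold lower at P6, and these comparisons share the E18 arrays. Background makes up more of the signal in the middle of an array, so these folds may understate the change. P6 minus P3 was 0.27 ± 0.27 (adjusted p = 0.65).

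Lmo4, a LIM-only protein that binds adaptor proteins but not DNA, was called in no comparison. Its probe set 1420981_a_at read 9.06 and 9.09 at E18, then 8.55 and 7.34 at P3, then 9.10 and 9.32 at P6. Both P3 arrays were below every other array, but they differed from each other by more than the P6 arrays did from E18. P3 minus E18 was -1.13 ± 0.39 (limma adjusted p = 0.0738) and P6 minus P3 was 1.26 ± 0.39 (adjusted p = 0.25), neither called. The change for P6 minus E18 was 0.13 ± 0.39 (adjusted p = 0.833). The low P3 mean rested on P3 replicate 2. With that array as the only one for P3, in a fit that called 45.0% and 16.7% of all probe sets, the 2 steps were -1.73 (adjusted p = 0.00318) and 1.86 (adjusted p = 0.0179). Without P3 replicate 2 the first was -0.52 (adjusted p = 0.106). P3 replicate 2 had the high 18S signal, and a fit with 18S as a covariate gave -0.66 for P3 minus E18 (adjusted p = 0.222). With arrays weighted by their fit, P3 minus E18 was called (-1.13, adjusted p = 0.0234).

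**Figure D1:**
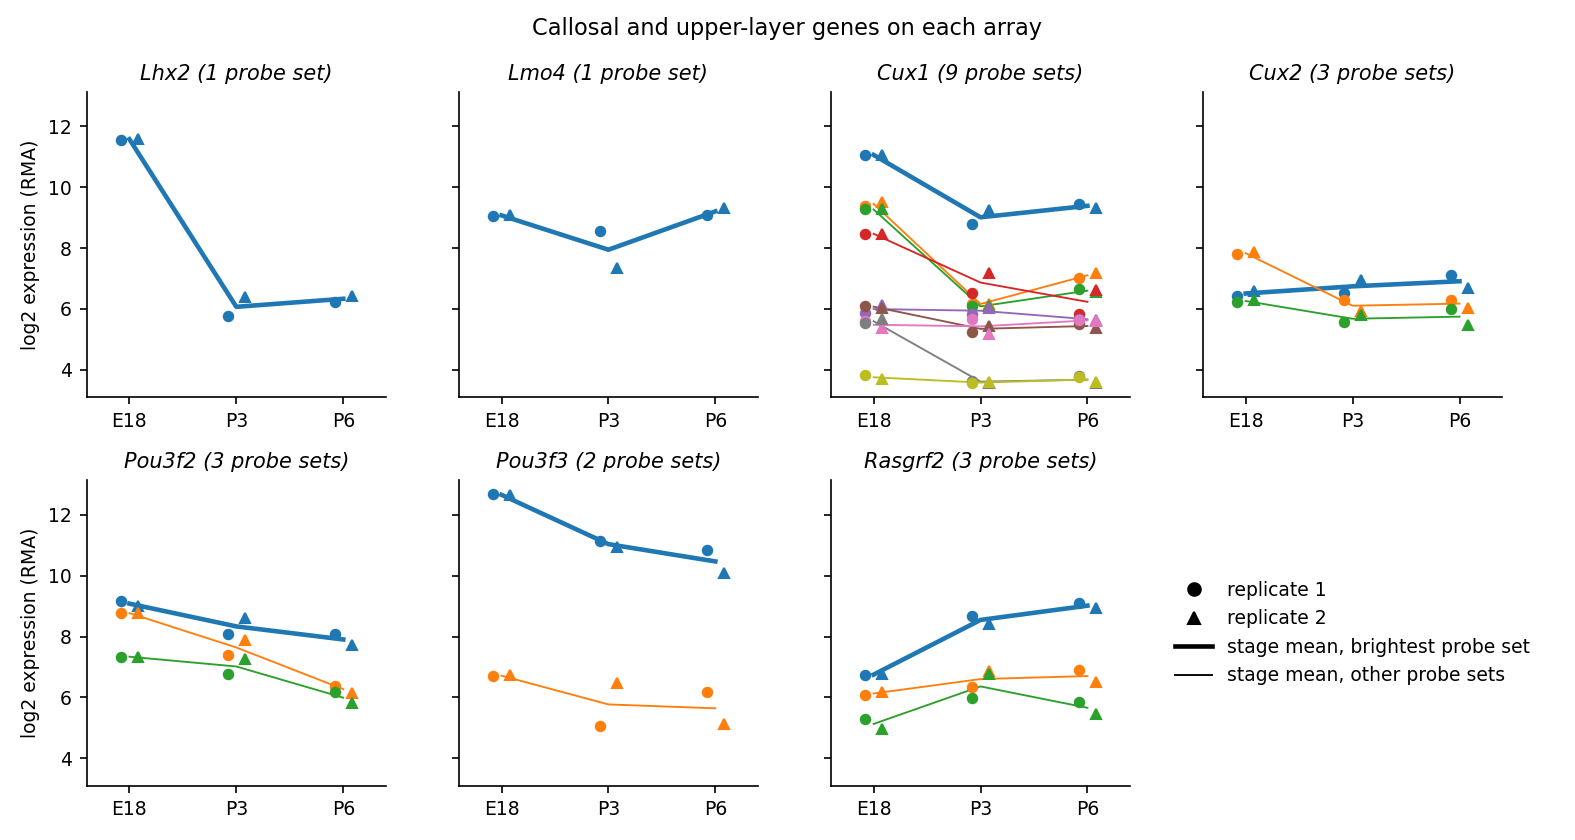
Log2 expression (RMA) of each member probe set on each array, with stage on the horizontal axis, circles for replicate 1, triangles for replicate 2 and lines through the stage means. Thick lines are the probe set with the highest mean: Lhx2 lies near 6 on the P3 and P6 arrays, against above 11 at E18, Lmo4 is lowest on its P3 arrays, and Rasgrf2 is above 8 on every postnatal array.

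Cux1, a homeodomain repressor that shapes dendrites of upper layer neurons, fell after E18 on most of its probe sets. Of 9 probe sets, 6 were called lower at P3 than at E18 and the same number at P6. The brightest, 1451435_at, read 11.07 and 11.06 at E18, then 8.78 and 9.25 at P3, then 9.45 and 9.33 at P6. Its change was -2.05 ± 0.25 for P3 minus E18 (limma adjusted p = 0.00189), 4.14-fold lower at P3, and -1.67 ± 0.25 for P6 minus E18 (adjusted p = 0.00423; 0.0633 with the E18 arrays averaged). All postnatal arrays of this probe set were below both E18 arrays.

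Larger falls came from the next 2 Cux1 probe sets. Probe set 1424667_a_at read 9.38 and 9.53 at E18, then 6.17 and 6.15 at P3, then 7.02 and 7.19 at P6. It was 9.81-fold lower at P3 (-3.29 ± 0.20, limma adjusted p = 0.000126) and 5.10-fold lower at P6 (-2.35 ± 0.20, adjusted p = 0.000449). Both P6 arrays were above both P3 arrays, but P6 minus P3 was not called (0.94 ± 0.20, adjusted p = 0.202); without P3 replicate 1 it was 0.96 (adjusted p = 0.0343). Probe set 1425611_a_at read 9.27 on both arrays at E18, then 6.08 on both at P3, then 6.66 and 6.54 at P6. It was 9.11-fold lower at P3 (-3.19 ± 0.19, adjusted p = 0.000112) and 6.37-fold lower at P6 (-2.67 ± 0.19, adjusted p = 0.000215).

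The other 6 Cux1 probe sets gave less signal. Probe set 1434683_at read 8.47 and 8.47 at E18, then 6.54 and 7.20 at P3, then 5.84 and 6.63 at P6, a change of -1.60 ± 0.33 for P3 minus E18 (limma adjusted p = 0.0161; 0.0866 with E18 averaged) and of -2.24 ± 0.33 for P6 minus E18 (adjusted p = 0.00448). Probe set 1441956_s_at read 5.54 and 5.65 at E18 and 3.55 to 3.79 on the postnatal arrays, among the dimmest of all probe sets (percentiles 0.322 and 0.762 at P3), a change of -1.99 for P3 minus E18 (adjusted p = 0.000138) and -1.92 for P6 minus E18 (adjusted p = 0.00016). So near the floor of the arrays a lower level could not be measured, and these sizes may understate the change. Probe set 1424668_a_at changed by -0.73 for P3 minus E18 (adjusted p = 0.0178) and -0.63 for P6 minus E18 (adjusted p = 0.0322). Those were 0.156 and 0.248 with E18 averaged, and the P6 call also ended without P6 replicate 1 (0.0652) or P6 replicate 2 (0.0882). Probe sets 1437431_at, 1437686_x_at and 1425612_at had values between -0.33 and 0.14 in both comparisons and were not called. The Cux1 probe sets are not independent: 3 were designed from 1 sequence record and 2 from another, and a locus with several transcripts can give probe sets that differ.

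Cux2, the close relative of Cux1, gave no single picture. Its brightest probe set by mean, 1447821_at, read 6.43 and 6.59 at E18, then 6.52 and 6.97 at P3, then 7.12 and 6.70 at P6, near the middle of each array. The changes were 0.24 ± 0.24 for P3 minus E18 (limma adjusted p = 0.468) and 0.40 ± 0.24 for P6 minus E18 (adjusted p = 0.296). Probe set 1447500_at read 7.81 and 7.86 at E18, then 6.29 and 5.92 at P3, then 6.31 and 6.04 at P6, with all postnatal arrays below both E18 arrays. It was 3.31-fold lower at P3 (-1.73 ± 0.21, adjusted p = 0.00204) and 3.16-fold lower at P6 (-1.66 ± 0.21, adjusted p = 0.00231). Probe set 1450181_at gave -0.58 for P3 minus E18 (adjusted p = 0.0843) and -0.51 for P6 minus E18 (adjusted p = 0.154). The direction stated for Cux2 therefore depends on the probe set: averaged over the 3, the change was -0.69 for P3 minus E18 (adjusted p = 0.021) and -0.59 for P6 minus E18 (adjusted p = 0.0426).

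Pou3f3, also called Brn1, acts with Pou3f2 in the production and migration of upper layer neurons. Its probe set 1435197_at read 12.68 and 12.65 at E18, then 11.15 and 10.93 at P3, then 10.84 and 10.10 at P6, with no overlap between stages. It was 3.08-fold lower at P3 (-1.62 ± 0.28, limma adjusted p = 0.00867; 0.0773 with E18 averaged) and 4.56-fold lower at P6 (-2.19 ± 0.28, adjusted p = 0.00253). P6 minus P3 was -0.57 ± 0.28 (adjusted p = 0.391). Even at its lowest the signal stayed far above the upper quartile of the arrays, which ran from 7.91 to 8.39. The dimmer probe set 1422331_at read 6.69 and 6.74 at E18, then 5.05 and 6.49 at P3, then 6.17 and 5.11 at P6. Its changes of -0.95 ± 0.51 for P3 minus E18 (adjusted p = 0.189) and -1.07 ± 0.51 for P6 minus E18 (adjusted p = 0.198) were not called, and its postnatal replicates were over 1 log2 unit apart. The probe set with 2 symbols read 8.93 and 8.88 at E18, then 7.80 and 8.39 at P3, then 7.55 and 7.53 at P6.

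Pou3f2, also called Brn2, was lower at P6 than at E18 on all 3 of its probe sets. Probe set 1453478_at read 8.77 and 8.78 at E18, then 7.38 and 7.90 at P3, then 6.39 and 6.16 at P6, stepping down at each stage with no overlap. It was 5.66-fold lower at P6 (-2.50 ± 0.25, limma adjusted p = 0.000779), and 2.19-fold lower at P3 (-1.13 ± 0.25, adjusted p = 0.019; 0.15 with E18 averaged and 0.102 with quantile normalization). P6 minus P3 was -1.37 ± 0.25 (adjusted p = 0.195; -1.63 with adjusted p = 0.0185 without P3 replicate 1).

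The other Pou3f2 probe sets gave smaller values. Probe set 1457734_at read 7.34 and 7.34 at E18, then 6.76 and 7.28 at P3, then 6.17 and 5.81 at P6. Its change for P6 minus E18 was -1.35 ± 0.24 (limma adjusted p = 0.0099; 0.0789 with E18 averaged and 0.0564 without P6 replicate 2), and for P3 minus E18 it was -0.32 ± 0.24 (adjusted p = 0.33). P6 minus P3 was -1.03 ± 0.24 (adjusted p = 0.21; -1.29 with adjusted p = 0.0254 without P3 replicate 1). Probe set 1450831_at read 9.16 and 9.01 at E18, then 8.07 and 8.60 at P3, then 8.09 and 7.72 at P6. It gave -1.18 ± 0.27 for P6 minus E18 (adjusted p = 0.0258) and -0.75 ± 0.27 for P3 minus E18 (adjusted p = 0.0823; 0.0376 without P3 replicate 2). Its P6 call ended with E18 averaged (0.197), with quantile normalization (0.109), without P6 replicate 1 (0.0621) and without P6 replicate 2 (0.097).

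Rasgrf2, the signalling gene of the set, was higher after birth. Its probe set 1440849_at read 6.74 and 6.76 at E18, then 8.67 and 8.43 at P3, then 9.10 and 8.94 at P6, with no overlap between stages. It was 3.48-fold higher at P3 (1.80 ± 0.21, limma adjusted p = 0.00186) and 4.82-fold higher at P6 (2.27 ± 0.21, adjusted p = 0.000664) than at E18. P6 minus P3 was 0.47 ± 0.21 (adjusted p = 0.361). Both calls held with the E18 arrays averaged (adjusted p = 0.0379 for P3 and 0.0144 for P6).

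The other Rasgrf2 probe sets also had positive values, with fewer calls. Probe set 1421621_at read 5.30 and 4.95 at E18, then 5.97 and 6.76 at P3, then 5.85 and 5.47 at P6. It was 2.35-fold higher at P3 (1.23 ± 0.29, limma adjusted p = 0.0255) and gave 0.53 ± 0.29 for P6 minus E18 (adjusted p = 0.257). That P3 call ended with E18 averaged (0.106), without P3 replicate 2 (0.0707), without P6 replicate 1 (0.0514) and without P6 replicate 2 (0.0515). Probe set 1440918_at gave 0.47 ± 0.25 for P3 minus E18 (adjusted p = 0.179; 0.0483 without P3 replicate 1) and 0.57 ± 0.25 for P6 minus E18 (adjusted p = 0.164).

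**Figure D2:**
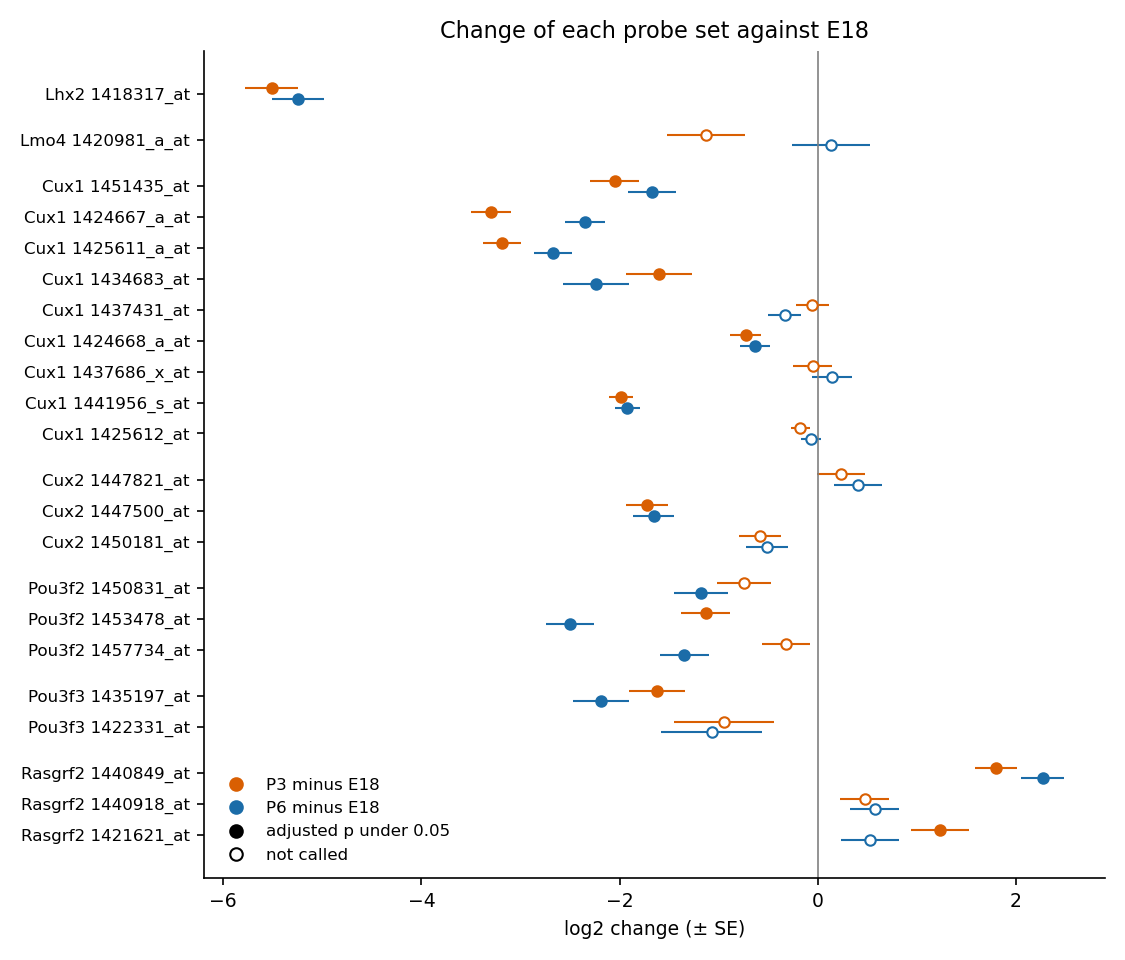
Log2 change with its SE for each of the 22 member probe sets, for P3 minus E18 and P6 minus E18, filled where the limma adjusted p was under 0.05. Lhx2 lies beyond -5 in both comparisons, the 3 Rasgrf2 probe sets are the ones right of 0 in both besides 1447821_at of Cux2, and the 9 Cux1 probe sets run from near 0 to beyond -3.

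Counted over the 22 probe sets, 10 were called lower and 2 higher at P3 than at E18, against 14.7% lower and 11.0% higher of all probe sets. At P6, 12 were called lower and 1 higher than at E18, against 11.0% lower and 7.45% higher of all probe sets. The lower calls made up 45.5% and 54.5% of the members. The median change was -0.85 for P3 minus E18 and -1.13 for P6 minus E18, against 0.15 and 0.11 over all probe sets. In all, 5 genes had at least 1 lower call in each comparison, namely Lhx2, Cux1, Cux2, Pou3f2 and Pou3f3. Rasgrf2 had a higher call in both, and Lmo4 had none. A gene with more probe sets can be called more easily on this count, and Cux1 alone gave 6 of the lower calls in each comparison. The share of all genes with at least 1 lower call was not computed. On the brightest probe set of each gene, 3 of the 7 were called lower at P3 and 4 at P6, against 18.0% and 12.0% of all genes. With the E18 arrays averaged, fewer of the 22 were called for P3 minus E18, and so were fewer of all probe sets. A filter that left out the dimmest 25% of probe sets kept 20 of the 22, and the 2 it dropped were Cux1 probe sets, 1441956_s_at among them. With that filter 11 members were called for P3 minus E18 and 12 for P6 minus E18, against 31.5% and 23.6% of all probe sets kept.

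No member was called between P6 and P3. For P6 minus P3, limma called 0 of the 22 members and 0 of all 45037 probe sets (0%), with 6 members and 6762 probe sets at an unadjusted p under 0.05 and a smallest adjusted p of 0.195. Without P3 replicate 1, a fit that called 16.7% of all probe sets, 5 of the 22 members were called, which were the Cux1, Lmo4, Pou3f2 and Rasgrf2 probe sets 1424667_a_at, 1420981_a_at, 1453478_at, 1457734_at and 1421621_at. The change in the second interval minus that in the first was called for 6 of the 22, against 10.2% of all probe sets, and all 6 were positive, each being lower at P3 than at E18 with a P6 minus P3 value above 0. They were Lhx2 (5.78, adjusted p = 0.00158), 4 Cux1 probe sets and 1 of Cux2. The brightest Cux1 probe set had 2.43 (adjusted p = 0.0196) and 1424667_a_at had 4.24 (adjusted p = 0.00168). Averaging the E18 arrays left 4 of the 6 called, and the calls of Cux1 1451435_at (adjusted p = 0.12) and Cux2 1447500_at (0.132) ended. With the dimmest 25% of probe sets left out, 5 were called, against 13.5% of all probe sets kept. No Pou3f2 or Pou3f3 probe set was called in that contrast. The F-test over the 3 stages called 13 of the 22, against 20.9% of all probe sets, and fewer of both with the E18 arrays averaged.

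Most listed markers of dividing and progenitor cells were also called lower after E18. Over all genes, 18.0% were called lower at P3 and 12.0% at P6. Of 9 radial glia and progenitor genes, 7 were called lower both at P3 and at P6 than at E18, with median changes of -3.66 and -3.68. The sum of their linear signals was 34134 and 34051 at E18, then 1534 and 2074 at P3, then 2005 and 2399 at P6. All 7 measured genes of the dividing-cell list were called lower in both comparisons, and their sum was 36722 and 37754 at E18, then 563 and 645 at P3, then 624 and 681 at P6. Of 5 intermediate progenitor genes 4 were called lower, and their sum was 7713 and 7789 at E18, then 361 and 416 at P3, then 359 and 352 at P6. These counts were the same with the E18 arrays averaged. For P6 minus P3 none of these genes was called. The median change was then 0.44 for the radial glia list, 0.08 for the dividing-cell list and -0.41 for the intermediate progenitor list. On the postnatal arrays 0 or 1 of the radial glia genes, 1 of the dividing-cell genes and 0 to 2 of the intermediate progenitor genes were under the array's lower quartile, and 0 of each were at E18.

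Lhx2, the Cux genes and the Pou3f genes are also made by progenitors, and the part of these cells in the falls was not tested. In sorted bulk RNA, fewer cells of a type and less RNA per cell cannot be told apart. The lists for other cell types moved less evenly. Over all genes, 18.0% were called lower and 11.7% higher at P3 than at E18. At P6 these shares were 12.0% and 9.94%. Of 9 interneuron genes 4 were called lower and 1, Npy, higher in both comparisons. The list's sums were 2006 and 2060 at E18, then 2090 and 2101 at P3, then 2123 and 1482 at P6. Npy was the list's brightest gene on every array. It changed by 1.51 at P3 and 1.19 at P6, and both calls ended with E18 averaged. The list's mean log2 value was 7.30 and 7.34 at E18, then 6.34 and 6.49 at P3, then 6.49 and 6.13 at P6. Of 7 astrocyte genes 3 were called lower in both comparisons, namely Aldoc, Aldh1l1 and Gja1, and the Gja1 call at P6 ended with E18 averaged. The list's sums were 15128 and 15213 at E18, then 1319 and 1212 at P3, then 1793 and 4499 at P6. The 3 called genes were the brightest of the list at E18, and only these 3 had values below 0 for P6 minus E18. The list's median change was -0.64 at P3 and 0.13 at P6, against 0.09 and 0.13 over all genes. Of 8 microglia genes 5 were called lower at P3 (2 with E18 averaged or without P3 replicate 2) and 0 at P6, with sums of 7512 and 7433 at E18, then 1023 and 2238 at P3, then 1691 and 6077 at P6. Of 7 endothelial and pericyte genes 3 were called lower in both comparisons, of 7 oligodendrocyte lineage genes 2 at P3 and 1 at P6, and of 6 subcerebral layer 5 genes 4 were called higher in both. Rasgrf2 was also called higher in both comparisons, as were genes of the corticothalamic and layer 5 lists, and a link between them was not tested.

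**Figure D3:**
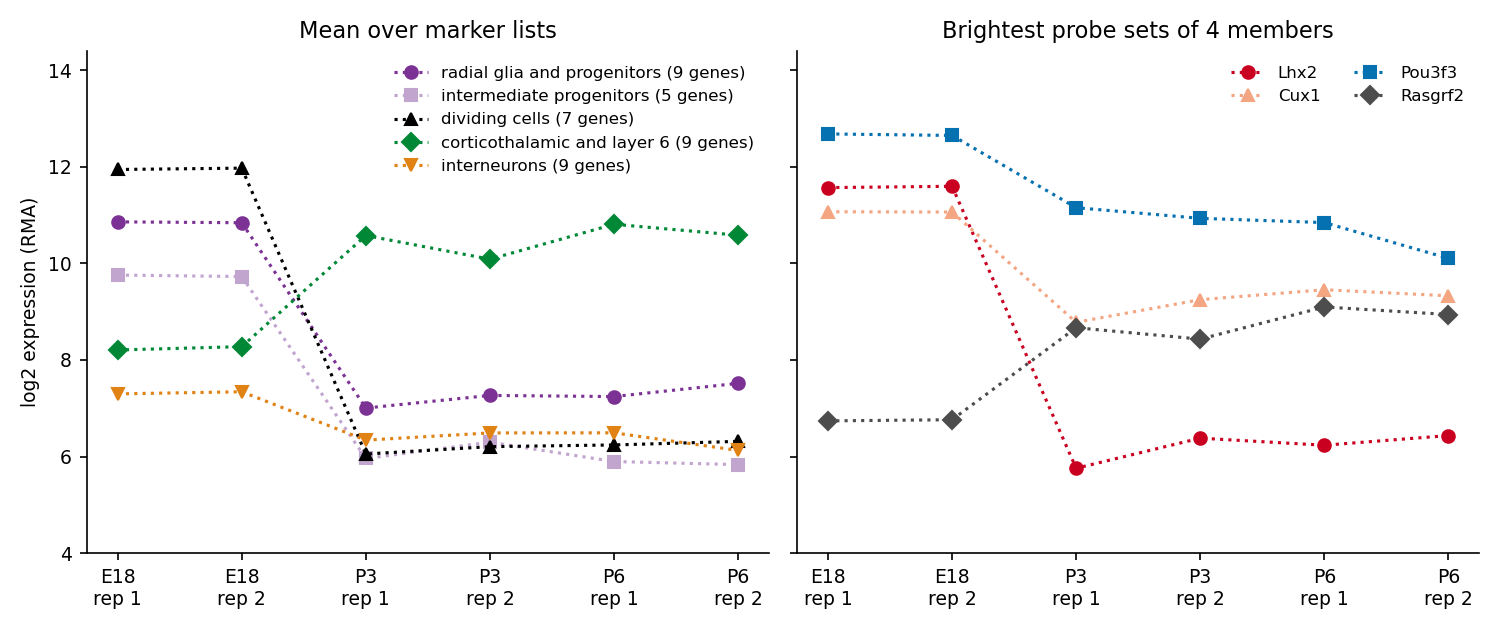
Left, mean log2 expression of 5 marker lists on each array; right, log2 expression of the brightest probe sets of Lhx2, Cux1, Pou3f3 and Rasgrf2 on the same arrays. The dividing-cell mean and Lhx2 both lie near 6 on the postnatal arrays, against near 12 at E18, while the corticothalamic mean and Rasgrf2 are higher on every postnatal array than at E18.

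A list of 32 other genes named for callosal or upper layer neurons served for comparison, of which 30 had a single-symbol probe set. On the brightest probe set of each gene, 9 were called lower and 5 higher at P3 than at E18, against 18.0% lower and 11.7% higher over all genes. At P6 the counts were again 9 lower and 5 higher, against 12.0% and 9.94%. The median change was -0.04 for P3 minus E18 and -0.07 for P6 minus E18, against 0.09 and 0.13 over all genes. With the E18 arrays averaged, fewer of these genes were called lower and fewer higher at each stage, and so were fewer of all probe sets. Without P3 replicate 2, more of these genes were called higher at each stage. Over all probe sets, that fit called fewer for P3 minus E18 and more for P6 minus E18. On the same measure, 3 of the 7 members were called lower and 1 higher at P3, and 4 lower and 1 higher at P6. With the E18 arrays averaged, fewer members were called lower at each stage, again with fewer calls over all probe sets, and Rasgrf2 was still called higher.

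Neurod1, Unc5d, Nr2f1 and Ptn had the largest falls on that list at P3, and Ptn, Neurod1 and Epha3 at P6. Neurod1, a proneural transcription factor, changed by -2.98 at P3 and -3.43 at P6 (limma adjusted p = 0.0011 for P6), and Ptn, the secreted growth factor pleiotrophin, by -2.52 and -3.97 (adjusted p = 0.000449 for P6). Unc5d, a netrin receptor, changed by -2.59 and -2.29 (adjusted p = 0.00364 for P6). Nr2f1, a nuclear receptor that patterns cortical areas, changed by -2.55 at P3, and the ephrin receptor Epha3 by -2.48 at P6. Other upper layer genes rose with Rasgrf2. Kitl, the ligand of the receptor Kit, changed by 2.07 at P3 and 1.88 at P6, and the activity-regulated factor Mef2c by 2.06 and 1.72. Cdh13, a cadherin, changed by 2.62 ± 0.53 at P6 (adjusted p = 0.0155; 0.0639 with E18 averaged) and Lpl, lipoprotein lipase, by 2.52 ± 0.23 (adjusted p = 0.000617).

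Genes for proteins that bind LIM domains or their adaptors were also measured. Of 6 on this list, 1 was called lower and 2 higher in each comparison, against the shares over all genes of 18.0% lower and 11.7% higher at P3 and 12.0% and 9.94% at P6. The adaptor gene Ldb1 changed by -1.72 at P3 (limma adjusted p = 0.0094) and -1.50 at P6 (adjusted p = 0.0163), and its paralog Ldb2 was 1.96 higher at P3 (adjusted p = 0.0031) and 1.95 higher at P6 (adjusted p = 0.0031), on the log2 scale. Ssbp3, which binds the Ldb adaptors, was called higher at P3 (1.03) but not at P6 (0.26, adjusted p = 0.478), and Ssbp4 at P6 (1.14) but not at P3 (-0.10). With the E18 arrays averaged only the Ldb2 call remained in each comparison: Ldb1 had adjusted p = 0.0728 at P3 and 0.115 at P6, Ssbp3 had 0.21 and Ssbp4 had 0.164.

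Of 14 listed relatives of the members, 4 were called lower and 2 higher at P3, against 18.0% and 11.7% over all genes. At P6, 2 were called lower and 3 higher, against 12.0% and 9.94%. Among LIM-only genes, Lmo3 was higher by 1.52 at P3 and 1.88 at P6, whereas Lmo1 changed by -1.72 at P3 (called) and gave -0.84 at P6 (limma adjusted p = 0.141), and Lmo2 changed by -1.13 at P3 (called) and gave -0.25 at P6 (adjusted p = 0.393). The POU gene Pou3f4 changed by -1.66 at P3 and -1.78 at P6, both called, and Pou3f1 was not called (0.44 and -0.59). Rasgrf1, the relative of Rasgrf2, was higher at P6 (1.33, adjusted p = 0.00622) and not called at P3 (0.58, adjusted p = 0.0868). The LIM-homeodomain gene Lhx6, which is also on the interneuron list, changed by -2.46 at P3 and -2.28 at P6. With the E18 arrays averaged, fewer relatives were called lower at P3 and fewer higher at each stage, and so were fewer of all probe sets. The calls that ended included Lmo3 (adjusted p = 0.0722), Lmo1 (0.0933), Lmo2 (0.116) and Pou3f4 (0.0605) at P3 and Rasgrf1 (0.0647) at P6.

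**Figure D4:**
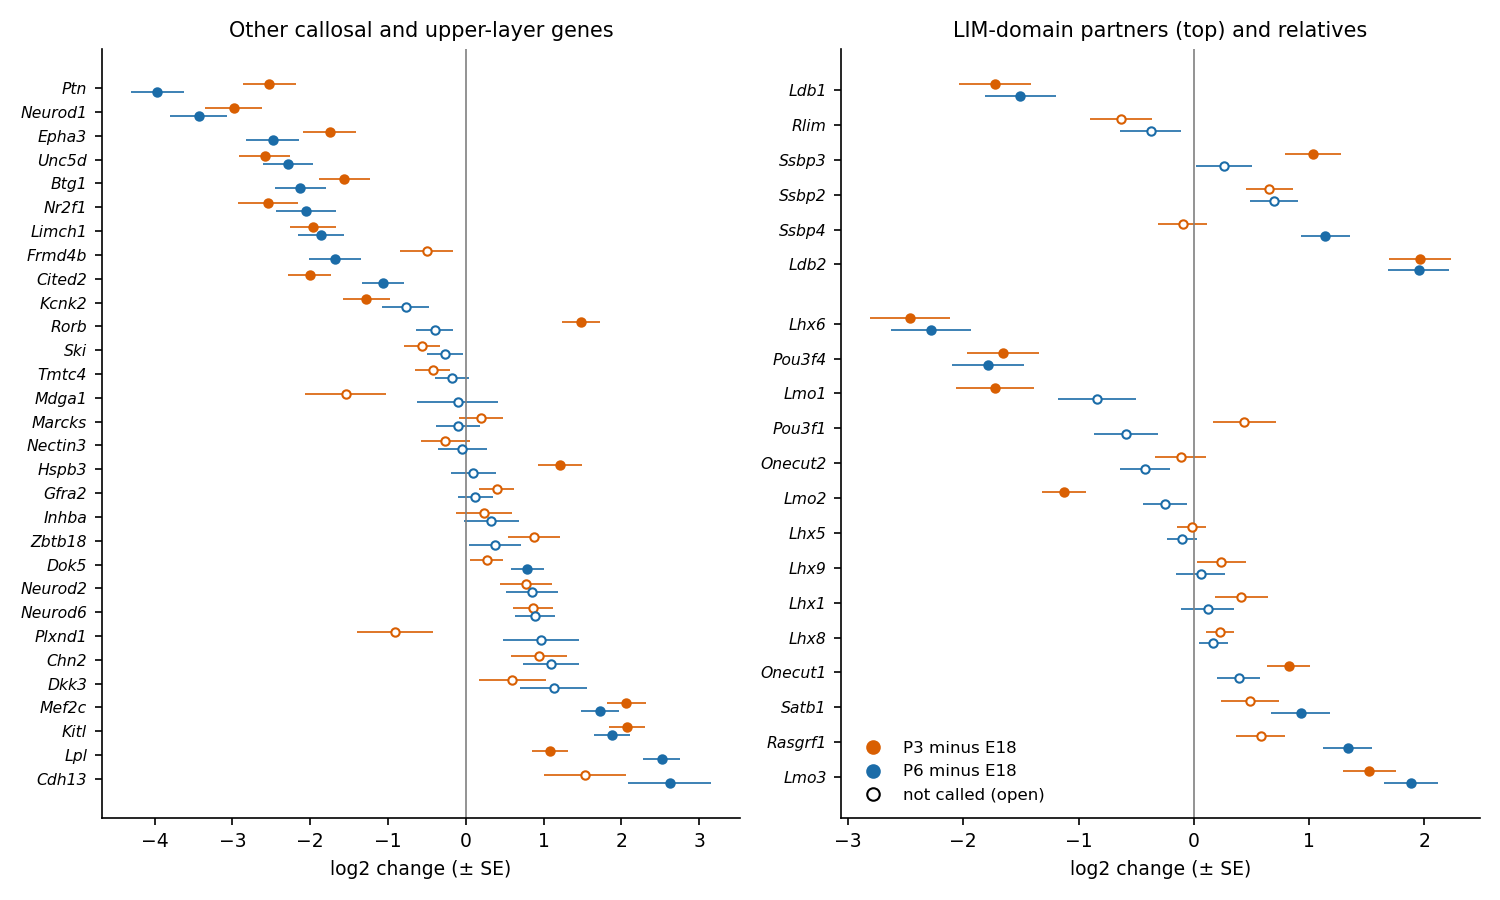
Log2 change with its SE on the brightest probe set of each gene, for P3 minus E18 and P6 minus E18, filled where the limma adjusted p was under 0.05. Left, the 30 other callosal and upper layer genes, from Ptn at -3.97 to Cdh13 at 2.62 for P6 minus E18; right, the 6 LIM partners and the 14 relatives.

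The genes whose pattern over the 6 arrays came closest to each member were found by the root-mean-square (RMS) difference of log2 values after each profile was centred on its own mean, over 12851 genes. With 3 stages and similar replicates such likeness is easily reached, and it describes these arrays only. Closest to Lhx2 was Cdc20 (RMS 0.115, Pearson r 0.9997), then Birc5 and Veph1. Cdc20 read 11.88 and 11.97 at E18, then 6.31 and 7.01 at P3, then 6.71 and 7.04 at P6. Closest to Rasgrf2 were Cplx3 (RMS 0.061), Fgf12 and Nipal3, and Cplx3 read 5.91 and 6.09 at E18, then 7.87 and 7.57 at P3, then 8.27 and 8.11 at P6. Lmo4 was matched by Gpx7 (RMS 0.047), Kcnd3 and Tm2d1, which shared its low value on P3 replicate 2: Gpx7 read 7.18 there and 8.32 to 9.03 on the other arrays. Cux1 was matched by A2m, Metrn and Wdyhv1, Pou3f2 by Pcgf2, Pi4k2b and Mphosph9, and Pou3f3 by Dubr, Ccne1 and Mycn. The nearly level Cux2 profile of 1447821_at was matched by Chrnd, Sct and Tap1.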

How the data were processed

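The deposited values are log2 expression values that the authors made with RMA, per the submitters' processing notes; its version, and whether the 6 arrays were run together, are not given in the sources used here. Array signals are relative, so the number of arrays limits the precision. Genes were assigned by the platform annotation: of 45101 probe sets, 34945 had 1 symbol, 932 several, 9160 none and 64 were controls.

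Means per stage came from limma 3.58.1 under R 4.3.3 (lmFit, eBayes with an intensity trend, 3 residual degrees of freedom) on the log2 values of all 45037 non-control probe sets, unfiltered. P-values were 2-sided and Benjamini-Hochberg adjusted within each contrast, and called under 0.05. Errors are standard errors, with n = 2 arrays per stage. The spread of a probe set was estimated over all 3 stages, also where 2 stages were compared. The procedure was tested on simulated data. Members and lists were chosen with earlier results of these data known. Named were all member probe sets, up to 6 called genes per list and comparison with the largest changes, direct partners and paralogs, and the 3 genes most like each member. A gene's brightest probe set by mean stood for it in lists. Replicate numbers came from the sample names, and the replicate differences of the stages correlated at -0.169, 0.049 and -0.239. Array quality also differed between replicates, so these values cannot tell whether the numbers pair the arrays. The main fit did not pair them. Alternatives covered normalization, filtering, summarising by gene, covariates, array weights and leaving out arrays.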

Additional observations from a re-analysis of the deposited data

How the results depend on the processing

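For P3 minus E18 the count of 12 called members became 7 with the E18 arrays averaged, and ran from 7 to 14 when 1 array was left out. The F-test's 13 became 7 with E18 averaged and 8 with spike-in hybridization controls as a covariate, and ran from 7 to 15 when 1 array was left out. For P6 minus P3 leaving out 1 array gave 0 to 5. With 1 value per gene, the brightest probe sets were fitted with the lowest 25% of genes left out. They gave 4 of 7 genes for P3 minus E18, against 41.3% of all genes in that fit. For P6 minus E18 they gave 5, against 31.7%, and for the F-test 5, against 38.7%. Gene means gave 6 in each, against 37.0%, 26.6% and 32.5% of all genes. These fits test 7 genes, not 22 probe sets. Over all probe sets, P3 minus E18 had 11567 calls, 3305 with E18 averaged, 3607 with the hybridization covariate and 20275 without P3 replicate 1; P6 minus E18 had 8294, against 3354, 4032 and 12394; and P6 minus P3 had 0, against 7512 without P3 replicate 1. With the hybridization covariate, 8 members were called for P3 minus E18 and 9 for P6 minus E18, against 12 and 13 without it. The P6 minus E18 count also fell with the E18 arrays averaged. For the F-test, 9412 of all probe sets were called in the main fit and 2993 with the hybridization covariate. Fewer than in the main fit were called with E18 averaged, and also without either E18 array or either P6 array. More were called without either P3 array. The cause of these differences was not tested.

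Among the brightest probe sets, signs turned only where the reported value was not called. Cux2 1447821_at for P3 minus E18 was -0.037 with the hybridization covariate, -0.059 with the 18S covariate and -0.69 with probe sets averaged, which also gave -0.59 for its P6 minus E18 and -0.045 for P6 minus P3 of Rasgrf2. For P6 minus P3, leaving out 1 array gave -0.055 to 0.39 for Cux2 and -0.047 to 0.58 for Lhx2. The replicate block gave 12 members for P3 minus E18, 12 for P6 minus E18, 0 for P6 minus P3, 6 for the unequal intervals and 11 for the F-test. Over all probe sets the block called 9076, 7203, 0, 3233 and 7745 in that order. The main fit called 11567, 8294, 0, 4591 and 9412. The block ended 1 call among 37 member changes followed here, Cux1 1424668_a_at at P6 (adjusted p = 0.0662). Of those 37, quantile normalization kept the call or its absence for 35, array weights for 36, a fit without trend for 37, the 18S covariate for 34 and the hybridization covariate for 29. Whether 2 arrays per stage reflect separate animals cannot be told.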
